A study of Drosophila melanogaster with 3 samples.

Results

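Pipsqueak bound 1407 regions of the larval genome that hold several summits each, out of 7590 bound regions in all (18.5%). A summit is the base at which a peak call, here an entry of the authors' list, reaches its highest signal. Regions were made by joining entries of the authors' optimal list that overlapped by at least 1 bp. The 1407 regions were selected on 2 values of that list: each holds 2 or more entries, and none is among the 500 regions with the highest signal value. Number of entries, width and signal are therefore descriptions here and carry no test. For comparison, 5683 regions outside the 500 strongest hold 1 entry, and 298 of the 500 strongest (59.6%) hold several.

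All material came from 1 group of 3 biological replicates, pooled male and female wandering third-instar larvae of a transgenic Drosophila melanogaster line, psq-GFP. The line carries GFP fused to the C terminus of Pipsqueak, the antibody was against GFP, and chromatin was sonicated to 200 to 800 bp. Whole animals were used, so binding in different tissues is averaged, summits of a region cannot be assigned to the same cells, and the lists hold no marker that would check the tissue. No genotype, treatment or time was compared. The lists hold peaks and no reads, so depth is unknown.

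Pipsqueak is a transcription factor with an N-terminal BTB domain, through which such proteins form multimers, and C-terminal Pipsqueak DNA-binding domains that recognise GAGA-type repeats. It shares that sequence preference with the GAGA factor, the product of Trl, and has been linked to Polycomb and Trithorax group regulation and to early oogenesis. Multimers of BTB proteins can contact more than 1 site on DNA.

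A set of 6 stretches shows what the DNA under such neighbouring summits looks like. Each runs from 40 bp before the first to 40 bp after the last summit, on the plus strand of release 6 (dm6, NCBI RefSeq), with GAGAG and its reverse complement CTCTC in capitals, overlapping matches joined. They were taken from regions whose summits lie at most 220 bp apart. The first 4 have the most matches and stand at kay, which encodes the fly Fos protein, at bi, which encodes the T-box factor Optomotor-blind, at Ten-m, which encodes a teneurin, and at Delta, which encodes a Notch ligand. The other two are the strongest of the regions considered that have no match, and stand at CG43658 and CG9471.
kay (chr3R:29774516-29774798): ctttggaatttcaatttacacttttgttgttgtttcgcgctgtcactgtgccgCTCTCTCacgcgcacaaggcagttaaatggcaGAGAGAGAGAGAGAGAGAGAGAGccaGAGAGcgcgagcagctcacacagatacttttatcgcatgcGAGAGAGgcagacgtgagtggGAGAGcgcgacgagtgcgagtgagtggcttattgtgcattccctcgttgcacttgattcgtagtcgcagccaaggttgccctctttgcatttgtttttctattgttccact
bi (chrX:4426915-4427203): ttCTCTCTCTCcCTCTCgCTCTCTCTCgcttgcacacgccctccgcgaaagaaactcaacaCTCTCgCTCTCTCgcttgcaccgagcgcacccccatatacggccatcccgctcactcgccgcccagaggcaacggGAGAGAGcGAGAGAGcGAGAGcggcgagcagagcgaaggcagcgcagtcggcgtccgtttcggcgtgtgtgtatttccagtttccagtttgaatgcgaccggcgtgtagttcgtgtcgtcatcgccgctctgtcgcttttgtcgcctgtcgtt
Ten-m (chr3L:22407805-22408086): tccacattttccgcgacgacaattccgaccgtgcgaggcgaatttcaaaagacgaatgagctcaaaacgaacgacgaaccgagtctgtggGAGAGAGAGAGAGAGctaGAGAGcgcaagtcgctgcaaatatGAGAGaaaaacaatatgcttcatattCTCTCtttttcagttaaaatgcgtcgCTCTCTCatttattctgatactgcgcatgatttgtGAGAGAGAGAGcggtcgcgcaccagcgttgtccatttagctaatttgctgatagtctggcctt
Delta (chr3R:19321872-19322151): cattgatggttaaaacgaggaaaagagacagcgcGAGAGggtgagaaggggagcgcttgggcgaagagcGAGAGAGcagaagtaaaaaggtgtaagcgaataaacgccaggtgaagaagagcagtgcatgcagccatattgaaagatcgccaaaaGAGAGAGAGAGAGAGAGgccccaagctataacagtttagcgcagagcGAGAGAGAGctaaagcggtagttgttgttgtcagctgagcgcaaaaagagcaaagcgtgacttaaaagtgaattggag
CG43658 (chrX:17561307-17561588): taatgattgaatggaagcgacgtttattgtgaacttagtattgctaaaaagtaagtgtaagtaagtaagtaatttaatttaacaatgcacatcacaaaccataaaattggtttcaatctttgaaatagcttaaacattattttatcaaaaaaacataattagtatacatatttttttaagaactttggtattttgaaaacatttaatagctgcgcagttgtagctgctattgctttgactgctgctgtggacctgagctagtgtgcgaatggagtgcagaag
CG9471 (chr3R:9771591-9771878): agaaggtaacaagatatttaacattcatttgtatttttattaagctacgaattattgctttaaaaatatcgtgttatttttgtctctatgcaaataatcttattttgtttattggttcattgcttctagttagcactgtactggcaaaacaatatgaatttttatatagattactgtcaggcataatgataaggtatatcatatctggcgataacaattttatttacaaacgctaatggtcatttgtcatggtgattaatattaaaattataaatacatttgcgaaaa

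The kay stretch holds 16 matches, all of them between its summits, which lie at bases 41 and 243 of the printed sequence and have signal values of 749 and 429. At bi there are 15 matches, the first starting at base 3 and the last at base 153, so all lie on the left of the pair of summits or between them. Of the 15 matches at Ten-m the first starts at base 91 and the last at base 226, all between the summits. The Delta stretch holds 13 matches, which start between bases 35 and 207. CG43658 and CG9471 have signal values of 1467 and 1456 at their stronger summits, higher than any of the 4 regions rich in matches, and no GAGAG within the printed window. Of the 1077 regions with summits no more than 220 bp apart, 42.7% held at least 1 match in such a stretch. The share was 43.5% in windows of the same length centred on the strongest summit of each, and 37.7% in windows of 283 bp centred on the summits of the 5683 regions with 1 entry.

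Most regions held a pair of summits. Of the 1407, 1335 (94.9%) had 2 entries, 57 had 3, 13 had 4 and 2 had 5. Together they took up 2903 of the 9459 entries of the optimal list (30.7%). Their median width was 711 bp (quartiles 567 and 730 bp, range 213 to 2600 bp) against 520 bp for regions with 1 entry. Of all entries of the optimal list, 58% were 520 bp wide, so these widths are not read as the extent of binding. In 229 of the 1407 regions (16.3%) entries shared both coordinates and differed in the summit only.

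Most neighbouring summits stood close to the smallest distance found in the lists. Over 1496 neighbouring pairs the median distance was 204 bp, with quartiles of 201 and 218 bp and a maximum of 1176 bp. The replicate lists, each reduced to its 9459 strongest entries, gave a median of 204 bp in all 3. No 2 summits of any list lay closer than 199 bp, and 78.9% of the distances in the optimal list (1181) were within 25 bp of that value. The share was 79.1% ± 0.577 (SD, n = 3) in the replicate lists. A smallest distance that is the same to the base in 4 lists is a property of these lists. Whether it is a setting of the peak caller is not stated, and how far it sets the 204 bp median was not tested, so that median is not read as a distance between binding sites. Only 214 regions (15.2%; 15.2% ± 1.72 in the replicates) had the first and the last summit at least 250 bp apart, and they are described separately where they differ.

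**Figure D1:**
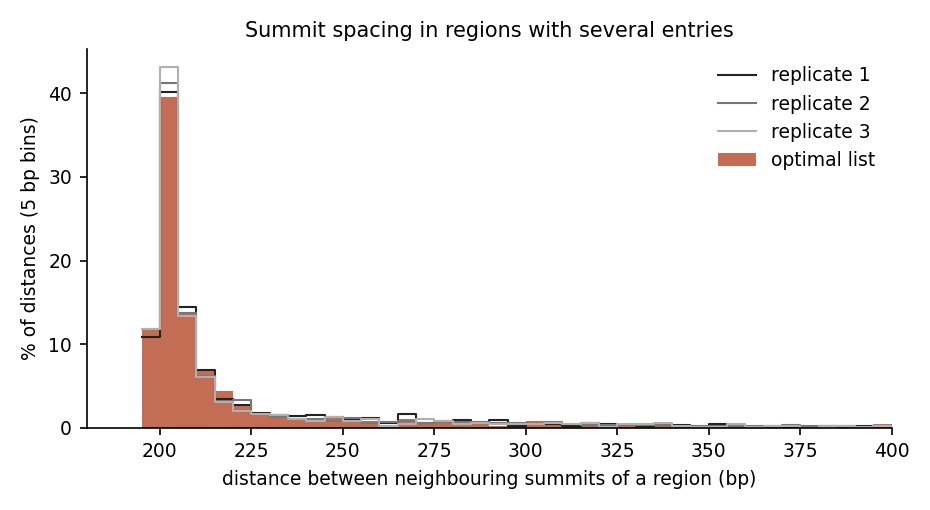
Distances between neighbouring summits of a region, in 5 bp bins up to 400 bp, as a percentage of all distances; bars are the optimal list and lines the 3 replicate lists. All 4 lists begin at 199 bp, peak just above 200 bp and fall off steeply.

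Summits of a region were of unequal strength. The signal of the strongest was a median 1.8 times that of the weakest in the same region (quartiles 1.37 and 2.52, highest 7.11), and in 571 regions (40.6%) it was at least 2 times as high. The replicate lists gave a median ratio of 1.76 ± 0.0153 (SD, n = 3). The order of the summits was mostly the same across the replicates, from which the optimal list was itself made: where both summits were found within 50 bp in a replicate's full list, the same one was stronger in 97% ± 0.988 of the regions (n = 3). On arm 2L, nearly all members with 2 closely spaced summits had the stronger one at the lower coordinate. So did all members at psq and all printed stretches. How far this order belongs to the lists was not tested, so the agreement is not read as evidence of fixed strong and weak sites.

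Regions with several entries were also the stronger ones. Their median signal value was 603 (range 199 to 1471) against 318 for regions with 1 entry. When the 7090 regions outside the top 500 were put into 10 groups of equal size by signal, the share with several entries went from 1.41% in the weakest group to 50.1% in the strongest. The signals of regions end at 191, and a second summit too weak for the list is not counted. How far this sets the rise was not tested. At the upper boundary, the strongest member was a region in Prp16, a splicing helicase gene, with signal values of 1471 and 661 at summits 201 bp apart. CG34460 (1467 and 896) and CG43658 (1467 and 927) came next. Just beyond the boundary lay regions in Vha55, which encodes a subunit of the vacuolar proton pump (1472 and 521), in Mnt (1475 and 962) and in CG32369 (1477 and 391), so nothing in the values separates the 2 sides. At the other end stood regions at Nckx30C, which encodes an ion exchanger (199 and 192), at betaTub60D, a tubulin gene (199 and 196), and at the rhodopsin gene Rh5 (200 and 194). In these weakest regions the summits were nearly equal, for which the end of the list near 191 leaves little other room. They lay 277 to 368 bp apart, and none of the regions had 2 entries in every replicate list.

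**Figure D2:**
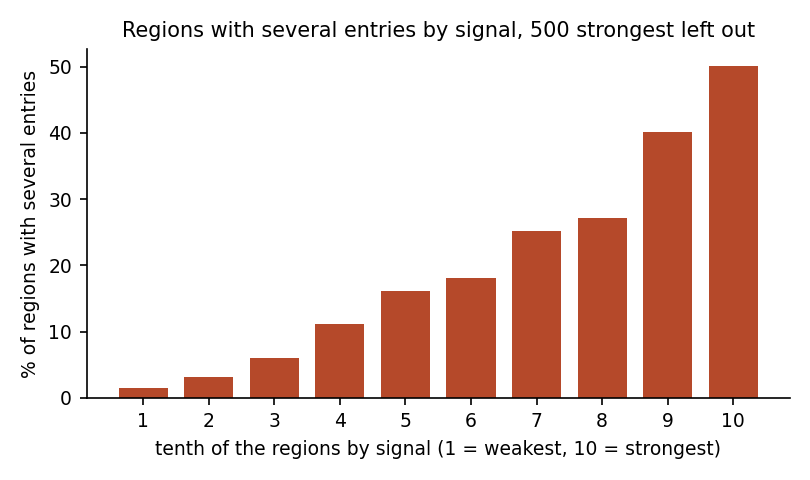
Percentage of regions with several entries in each of 10 groups of equal size by signal value, the 500 strongest left out. The bars go up at every step, from 1.41% to 50.1%.

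The weakest summit of a region was less often found in the reduced replicate lists than the strongest. Weakest was defined by signal and those lists were cut by signal, so this is not read as a difference in reproducibility. On average 75.2% ± 8.91 of the strongest summits and 57.3% ± 16.9 of the weakest lay within 50 bp of a summit in a replicate's 9459 strongest entries (SD, n = 3). Replicate 1 stood apart: it placed 2 or more entries in 698 of the 1407 regions, against 1102 in replicate 2 and 1031 in replicate 3. Built on its own, replicate 1 also gave fewer such regions, 1077 against 1580 and 1418. All 3 replicates had 2 or more entries in 473 regions (33.6%), and none had in 72 (5.12%). Among regions with 1 entry in the optimal list, 49 of 5683 (0.862%) had 2 or more in all 3. The division also depends on where a list ends: 2499 of the regions with 1 entry (44%) overlapped a further, weaker entry of the pooled list, against 153 of the members (10.9%).

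Members lay nearer to start sites of transcription than regions with 1 entry, and the excess was at a distance of over 250 and up to 1000 bp. In this band stood the strongest summit of 29.6% of the members and 17.6% of the others, a difference of 12.1 percentage points. The difference was 8.99, 9.29 and 7.47 points in the replicates (mean 8.58 ± 0.979, SD, n = 3; exact sign-flip permutation test, two-sided, p = 0.25). With 3 replicates 0.25 is the smallest p this test can give, so no difference can pass 0.05 by it, here or in the comparisons that follow. Within 250 bp of a start site the members were not ahead, with 30.2% against 33.2%, and the replicate differences were 0.281, -4.01 and -0.612 points. Beyond 1000 bp lay 40.2% of the members and 49.2% of the others, and this difference had the same sign in all 3 replicates. The median distance to a start site was 622 bp for members and 945 bp for regions with 1 entry, and the replicate differences were -313, -231 and -275 bp. Neither trait is particular to members. Of the 500 strongest regions, 29.2% stood in the band of over 250 and up to 1000 bp, and their median distance was 388 bp.

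**Figure D3:**
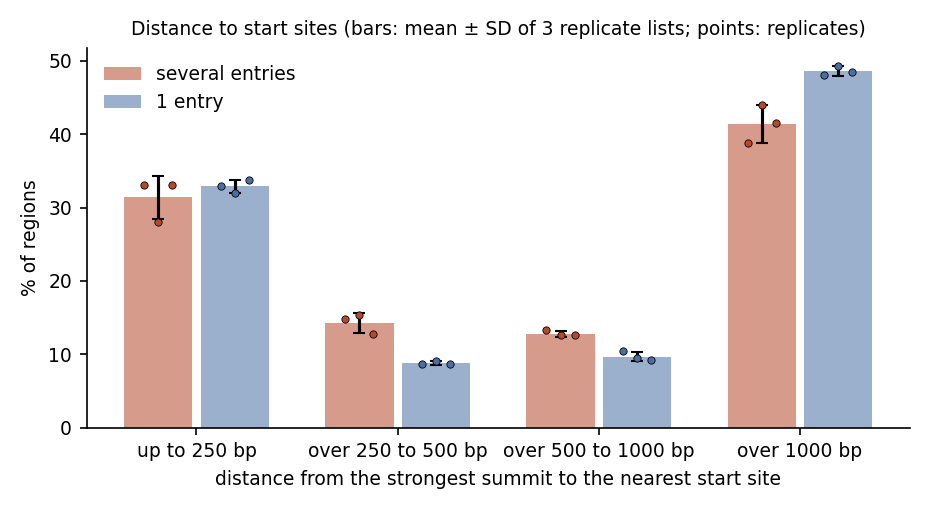
Percentage of regions whose strongest summit lies in each class of distance from the nearest annotated start site. Bars and whiskers are the mean and SD of the 3 replicate lists, points are the replicates; members exceed regions with 1 entry between 250 and 1000 bp in every replicate, and stay below them beyond 1000 bp.

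The excess was also there at matched signal. Weighting the regions with 1 entry to the signal of the members gave 18.8% in the same band, 10.9 points below the members (replicates 7.41 ± 1.52). For promoters taken as a whole, within 500 bp of a start site, the result was weaker: 45.2% of the members and 41.8% of the others, a difference of 3.38 points (replicates 6.37, 2.2 and 3.51; exact permutation p = 0.25) that came to 0.351 points with the same weights and was negative in replicate 2 then. It was also negative, at -3.02 points, with promoters limited to 250 bp, at -12.7 points for members with 3 or more entries, and at -4.44 points for those that span at least 250 bp.

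In each class of annotation outside promoters the difference was smaller than the 3.38 points at promoters. By distance it was larger, with 14.6% against 8.96% at over 500 and up to 1000 bp from a start site. Introns held 37.5% of the strongest summits against 40.3%, and intergenic sequence held 13.6% against 15%, both lower in all 3 replicates. Shares in 5' UTRs beyond the promoter were 1.92% against 0.933%, in 3' UTRs 0.426% against 0.95%, and in coding exons 0.213% against 0.211%. Among the chromosome arms, 3L held 24% of the members against 21.7% of the others, higher in 3 of 3 replicates, and 3R held 20.5% against 22.5%, lower in 2 of 3. The 214 regions with summits further apart were less often at promoters than the closely spaced ones, 37.4% against 46.6%, a difference of -9.22 points with the same sign in the 3 replicates (-8.5 ± 4.27, exact permutation p = 0.25).

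Near a start site, both summits usually lay within 500 bp of one, not necessarily the same one. Of 710 members with a strongest or weakest summit within 500 bp of a start site, 565 (79.6%) had both within that distance. Neighbouring summits lay a median 204 bp apart, well inside such a window. How far this alone gives the share was not tested. The weaker summit was nearer to the start in 376 and the stronger in 333, a difference of -6.06 points (replicates -4.75 ± 0.843, SD, n = 3; exact permutation p = 0.25). An annotated start lay between the first and the last summit in 13.9% of the members. Among 344 promoters where the side could be read, the weaker summit lay downstream of the stronger in 160 and upstream in 184. In close pairs on arm 2L the weaker summit nearly always had the higher coordinate. The side is thus tied to the strand of the gene, and the split is not read as an arrangement of promoters. Start sites on both strands within 500 bp were found at 13.6% of the members and 14.2% of the regions with 1 entry, with replicate differences of both signs (mean 0.389 ± 2.95).

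GAGAG was more frequent under the strongest summits of members than under those of regions with 1 entry. In windows that extended 50 bp either way, 19.3% of the members held it on either strand against 14.4% of regions with 1 entry. The difference of 4.85 points was 3.38, 4.1 and 4.6 in the replicates (4.03 ± 0.614, SD, n = 3; exact permutation p = 0.25), and 5.64 points after weighting by signal. It was 2.98 points when 1 entry was kept per set of identical coordinates, and 9.2 points for members with 3 or more entries. The longer GAGAGAG, which contains GAGAG, was found at 4.98% and 3.29%, also higher in each replicate. The 500 strongest regions held GAGAG in 22.8% and GAGAGAG in 7.8%, so the excess is not particular to members. For GAGAG, members were above those 500 in replicate 1 (0.27 points) and below in replicates 2 and 3 (-3.96 and -6.1). The weakest summits of members held GAGAG in 20.4%, so the letters did not go with the stronger summit of a region. Summits were also set against the points between them: 19.6% of summit windows and 19.1% of windows at the midpoints between neighbouring summits held a match, a difference of 0.53 points with replicate values of 3, -0.432 and -2.44 (exact permutation p = 1). Most members thus have no GAGAG at the strongest summit, which says only that these letters are not in the window. In 51 bp windows around the strongest summits of members with 2 closely spaced summits, the share was 10.4% at the summit, 12.7% at 200 bp outward and 12.2% at 200 bp towards the other summit. Around regions with 1 entry it was 7.14% at the summit, 9.03% and 8.97% at 200 bp. The higher share of members was thus not limited to the summit. Between the summits the excess was small, with 10.7% against 10.2% at 100 bp towards the other summit. In replicate 1 members were below at that point, with 8.93% against 9.01%, and in replicates 2 and 3 above.

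The AT-rich stretch at the strongest summit was wider on the side of the other summit. Around regions with 1 entry the GC content fell from 43.6% at 200 bp to 36.1% at the summit and went back to 43.3% on the other side. In the 1107 members with 2 summits at most 25 bp beyond the smallest distance, the strongest summit had 36.7%, and the side facing the other summit stayed low, 37.5% at 100 bp, while the outer side had 41.9%. The replicate means were 36.6% ± 1.75 and 42.3% ± 0.3 at these points (n = 3). At 200 bp, about where the other summit lies, the GC content was back at 42%, against 43.3% around regions with 1 entry, so the stretch ended before the other summit. Over all members, the weakest summits had a GC content of 41.3% in windows of 50 bp either way against 37.7% at the strongest, and were richer in GC in every replicate (3.88 points ± 0.691, exact permutation p = 0.25). TATAAA, the core of the TATA box but also a common AT-rich word, was found under 12.1% of the weakest and 16.6% of the strongest summits, fewer in every replicate. In close pairs on arm 2L the other summit nearly always had the higher coordinate, while for regions with 1 entry the positive side alternates. The side facing the other summit was thus not separated from the side of higher coordinates, in the profile or between strongest and weakest summits. Whether the order of summits in the list has a part in these differences was not tested.

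**Figure D4:**
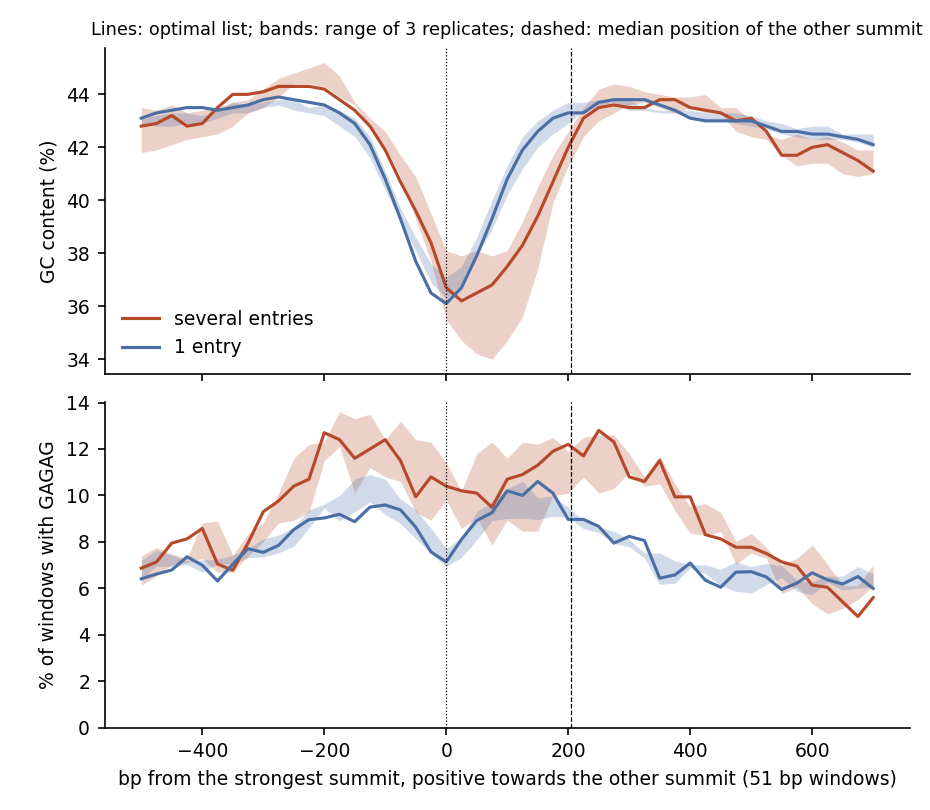
GC content (top) and share of windows with GAGAG (bottom) in 51 bp windows of the 1107 members with 2 closely spaced summits and of regions with 1 entry, by distance from the strongest summit, positive towards the other summit; for regions with 1 entry the positive side alternates between the left and the right. In close pairs on arm 2L the positive side was nearly always that of higher coordinates. The dashed line marks the median distance of 204 bp. Lines are the optimal list and bands the range of the 3 replicates; in members the GC trough widens to the positive side, with 37.5% at +100 bp against 41.9% at -100 bp.

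Of the 8 regions with the most entries, 2 had 5 summits. The region at Psc, which encodes a subunit of Polycomb repressive complex 1, had 5 summits over 1380 bp (chr2R:12979333-12981363), with signals of 1060 and 531 in an intron and, after a gap of 756 bp, 1010, 700 and 536 at the promoter. It had 6, 4 and 4 entries in replicates 1, 2 and 3. The other region with 5 summits, whose nearest start site is that of CG45544, was the widest at 2600 bp (chr3R:29255157-29257756). Its signals were 821, 479, 823, 674 and 442, the last 2 in a 3' UTR, and the replicates had 5, 6 and 5 entries there.

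Further regions with 4 summits were at ph-p, which encodes another subunit of the same complex, and at kis, a chromodomain helicase gene, and tna, both linked to the Trithorax group. At ph-p the signals were 457, 201, 1063 and 325 over 1127 bp in an intron. At kis they were 1051, 997, 617 and 236 over 792 bp from the promoter into an intron. A second region of kis, with 3 summits over 1375 bp, holds the widest gap between neighbouring summits, 1176 bp. The tna region spanned 1362 bp in an intron with signals of 412, 361, 1117 and 619. The remaining regions with 4 summits and the highest signals were in an intron of Pits, which encodes a partner of a transcriptional repressor (strongest 1434), in intergenic sequence nearest to CG43245 (strongest 1266), and at the promoter of Aps (strongest 1092). In 5 of these 8 regions, Psc, CG43245, tna, Aps and ph-p, summits came in close groups 199 to 223 bp apart, separated by gaps of 489 to 928 bp.

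**Figure D5:**
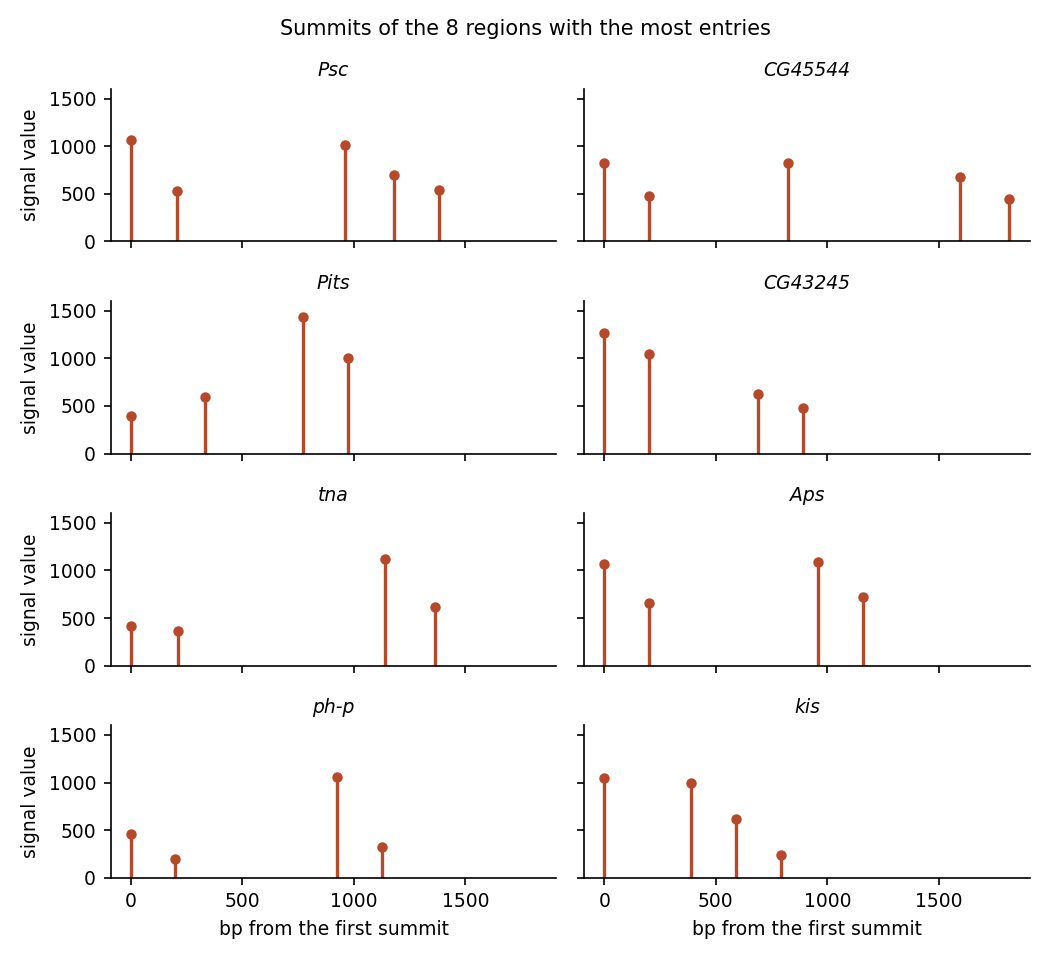
Signal value of each summit against its distance from the first summit, for the 8 regions with the most entries. In 5 of them, such as Psc with 5 summits over 1380 bp, groups of summits 199 to 223 bp apart are separated by a wider gap.

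Members stood in or within 1 kb of 1350 of 13945 protein-coding genes, which is 9.68% of all of them and 25.9% of the 5222 genes with any summit there. These genes were long, with a median span of 6320 bp against 2166 bp over all protein-coding genes and 3006 bp for genes with summits but no member. Most had 1 member (1123 genes), and 61 had 3 or more. Tet, which encodes the fly member of a family of DNA and RNA dioxygenases, had 9 members among 29 regions over a span of 92952 bp, with 5, 10 and 6 regions of several entries in the replicates. E2f1, a cell cycle transcription factor gene, had 8 over 40568 bp. The corepressor gene sbb, the ecdysone receptor gene EcR and the chromatin factor gene tou had 7 each. Eip75B, an ecdysone-induced nuclear receptor gene, and Mnt, which encodes a repressor that opposes Myc, had 6 each, and CG43658 was among 9 genes with 5.

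Pipsqueak's own gene held 5 members among 17 regions, in a span of 59393 bp. The signals of their stronger and weaker summits were 1191 and 469, 441 and 268, 1136 and 244, 949 and 299, and 1352 and 283. The region with 1136 had its strongest summit 2 bp from a psq start site, and the other 4 were in introns. Replicates 2 and 3 had 2 entries in each of the 5 and replicate 1 in only the first. The gene of the partner protein Lolal (lolal) had 1 member at its promoter with signals of 364 and 320 and 2 entries in each replicate, while Trl had 3 regions and no member.

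Against the background of 9.68% of all genes and 25.9% of genes with summits, the share of genes with a member differed widely between lists. The lists differ in gene length, whose part in these shares was not tested, so the median span is given with each. In the ecdysone cascade, which times moulting and metamorphosis at this stage, 12 of 20 genes (60%; replicates 56.7% ± 7.64, SD, n = 3; median span 36624 bp) held a member, the strongest at E23, an ABC transporter gene (1431 and 358), at the nuclear receptor gene Hr4 (1395, with 618 at the weakest of 3 summits) and at br (1247 and 576). Of the EGF receptor pathway 12 of 18 genes did (66.7%; replicates 50% ± 5.56; 17366 bp), led by the ligand gene spi (1220 and 876), the kinase gene Raf (1039 and 742) and kek1, whose product inhibits the receptor (917 and 320). Among BTB and Pipsqueak-domain factors the count was 10 of 20 (50%; 43.3% ± 10.4; 31702 bp), with lola (1387 and 918), psq and br strongest.

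Dpp pathway genes held a member in 8 of 16 cases (50%; 50% ± 6.25; 12630 bp). Their strongest were the proteoglycan gene dlp (1448 and 784), the transcription factor gene shn (1353 and 758) and the proteoglycan gene dally (1004 and 216). For neuroblast and neuronal regulators the count was 9 of 19 (47.4%; 38.6% ± 3.04; 14767 bp), with the RNA-binding protein gene Syp (1412, and 229 at the weakest of 3 summits), insc (1085 and 420) and dpn (1012 and 380). The Notch pathway had 7 of 18 (38.9%; 46.3% ± 11.6; 7577 bp), with the receptor gene N (1409 and 231), the ubiquitin ligase gene neur (1109 and 717) and the protease gene kuz (1106 and 437). Polycomb and Trithorax group genes had 8 of 24 (33.3%; 33.3% ± 4.17; 7772 bp), led by kis, ph-p and Psc. Of the genes of these 7 lists that had any summit, 46.7% to 80% held a member, against 25.9% of all such genes.

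In the next 4 lists, 29.4% to 33.3% of the genes with a summit held a member, closer to the background. Members were at 5 of 17 actin, adhesion and guidance genes (29.4%; 29.4% ± 11.8; 40634 bp), the strongest at sdk, ena and trio. The Hippo pathway had 5 of 18 (27.8%; 29.6% ± 8.49; 7382 bp), with ex (1400 and 682), dco and wts. The Wingless pathway had 4 of 17 (23.5%; 29.4% ± 5.88; 12448 bp), with the receptor gene fz2 (1422 and 291), arr (1001 and 996) and sgg. Insulin and TOR genes had 4 of 18 (22.2%; 24.1% ± 11.6; 6898 bp), with the receptor gene InR (1309 and 248), Pdk1 and Pi3K21B. Of the Hox genes, which have a median span of 30563 bp, only Antp of 8 held members (12.5%; 16.7% ± 7.22), which is 20% of those with a summit, and the stronger of its members had signals of 944 and 226.

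Genes for cytosolic ribosomal proteins are short and widely transcribed, and 14 of 88 (15.9%; 13.6% ± 3.41; 1326 bp) held a member, or 21.5% of those with a summit. RpL32 (812 and 316), RpS13 (781 and 236) and RpS25 (684 and 333) had the strongest, with the strongest summit inside the neighbouring genes CG7627 for RpS13 and ZnT86D for RpS25. Chemoreceptor and odorant-binding protein genes had 1 of 230 (0.435%; 0.87% ± 0.753; 1498 bp), Ir60b, with the summit inside the neighbouring gene Letm1. Cuticle protein genes had 1 of 92 (1.09% in the optimal list and in each replicate; 884 bp), Cpr12A. Few genes of these last lists carry any summit, 5.22% and 7.61%, compared with 73.9% of the ribosomal protein genes.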

How the data were processed

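Per the labels, the samples are 3 biological replicates, and the deposited lists exist on dm6 and dm3. Text files that the authors deposited beside them describe replicate and pooled lists as peaks with background, called against a control and passed to an irreproducible discovery rate (IDR) step that gave the optimal list. No source used here gives the aligner, the caller or the threshold. The signal value of each entry, on an unstated scale, and its summit offset are as deposited by the authors, and signals were used only within a list. The control was not analysed here.

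In Python 3.11.15 (numpy 2.4.6, pandas 2.3.3), overlapping entries (1 bp) of the optimal dm6 list were merged. A region has the signal of its strongest entry and is placed by that entry's summit, promoters (within 500 bp of an annotated start) taking precedence over exons, exons over introns, and introns over intergenic sequence. Gene models are of Ensembl release 115 and sequence is of RefSeq release 6. For errors, the rule was rebuilt in the 9459 strongest of 30000 entries of each replicate. Differences were tested by exact two-sided sign-flip permutation over the 3 replicate values, and regions were never treated as replicates. The 15 gene lists were counted by genes with a member in their span or 1 kb of it. The code was tested on simulated data.

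Regions named are the 8 members with the most entries, the 4 longest first-to-last spans, the 3 highest and 3 lowest signals, the 3 regions with several entries just inside the top 500, and those at psq, Trl and lolal. Genes named are the 8 with the most members (the tie at 5 members broken by the number of regions and then by symbol) and up to 3 per list with the strongest region. Sequences printed are the 4 with the most GAGAG and the 2 strongest without it among members spanning at most 220 bp, arm 2R left out. Members, lists and rules were chosen with earlier results of these data known. The bands of distance from start sites were chosen after seeing the data.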

Additional observations from a re-analysis of the deposited data

How the results depend on the processing

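The difference in GAGAG at strongest summits stayed positive under all 15 alternatives, from 1.68 to 9.2 points. The alternative with the first and last summit at least 100 bp apart is among these 15 and among the 14 below, but could not change a value, since no 2 summits lie closer than 199 bp. The 3 alternatives with a replicate left out are means of the 2 remaining replicate differences. Those differences were all positive for GAGAG and for promoters, so these alternatives could not reverse either result. The promoter difference reversed under 3 of 14, at -12.7 points with 3 or more entries, -3.02 with promoters within 250 bp and -4.44 with the first and last summit at least 250 bp apart, an alternative chosen after seeing the data. The difference between summits and midpoints took either sign: -5.81 points with 3 or more entries, -0.0901 with no region left out, -3.86 in the stronger 50% of the entries, -0.114 in windows of 25 bp to each side, -0.568 for GAGAGAG, -4.04 with spans of at least 250 bp, and from -1.44 to 1.28 with a replicate left out. With spans of at least 250 bp the stronger summit was the nearer by 0.99 points in the optimal list. It was the farther in all 3 replicates (-11.1, -6.35 and -0.943 points). The number of regions was 1407, against 72 with 3 or more entries, 448 in the stronger 50% of the entries, 214 with spans of at least 250 bp, and 555 to 834 when 2 or more entries were asked of both remaining replicates. The median distance was 205 bp with merging up to 100 bp, with 1000 regions left out and on dm3, 241 bp with 3 or more entries and 280 bp with spans of at least 250 bp. Causes were not tested, other than that fewer regions were counted. No paired analysis was possible because there is only 1 group, so replicate numbers pair no groups; members and regions with 1 entry were compared within each replicate. Depth is unknown, so counting error could not be given, and with 3 replicates the sign-flip test cannot give a p below 0.25.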
